A study of Cavia porcellus with 13 samples.

Results

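The keratin genes of guinea pig skin were followed across tick bites. In the deposited table, 30 gene symbols had the form KRT plus a number, keratin-associated proteins left aside, and 29 of them reached 1 TPM in at least 2 of 13 libraries. TPM is a length-scaled share of a library's transcripts, so levels can be compared between genes. The 29 are among 26855 genes in the table and 14979 that passed the same filter on low values. They were grouped by where most are known to be made, with KRT84 placed in the hair shaft group as a hair-type keratin. There were 2 basal, 4 suprabasal, 8 inner root sheath and 7 hair shaft keratins, and KRT75 of the companion layer and outer root sheath. The rest were 2 simple epithelial and 5 other epithelial keratins. KRT4, a keratin of wet-surfaced epithelia, did not pass, with a highest level of 1.09 TPM. Keratins that carry other symbols or none in the table, such as KRT6A, KRT10, KRT15, KRT16 and KRT17, are not analysed here.

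Keratins form the intermediate filaments of epithelial cells, each filament pairing a type I with a type II chain. Dividing cells of the basal epidermal layer make KRT5 with KRT14, and cells that leave that layer switch to KRT1 and later to KRT2. In the growing hair follicle, the inner root sheath makes its own chains, such as KRT25 with KRT71, while the shaft makes hard keratins such as KRT35 with KRT85. Keratin RNA in a skin biopsy therefore carries information on epidermal layers and on follicles.

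The skin came from guinea pigs, and bitten skin was sampled at day 4 after tick attachment. Naive libraries carry day 4 as well. Titles of 8 libraries begin with CK1 and those of 5 with EF19-5, and these prefixes, which the labels do not explain, were taken as experiments. CK1 held skin bitten at a first exposure (3 libraries), bitten skin of animals labelled saliva immune (3; how they were immunized is not given) and naive skin without a bite (naive replicates 1 and 2). EF19-5 held skin labelled 2 bites (2 libraries), skin labelled 3 bites (2) and a single naive library, replicate 3. Strain, age and sex are not given in the labels, and neither is a statement that libraries came from separate animals. P-values therefore measure only how far these samples spread, and that spread may be technical. TPM values keep no depth, so the counting error behind each is unknown.

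The libraries differed in tissue other than epithelium. The 10 skeletal muscle marker genes in the table, of 12 on that list, took 5.37% and 9.35% of summed TPM in the CK1 naive libraries, 1.32% to 5.42% in the bitten CK1 libraries, 1.37% in the EF19-5 naive library and 0.33% to 0.83% in the 2 bites and 3 bites libraries. The 7 adipocyte markers took 0.0557% and 0.112% in CK1 naive skin and 0.12% to 0.734% elsewhere. The 7 fibroblast markers took 0.181% to 0.376% in CK1 and 0.318% to 1.27% in EF19-5. Defining keratinocyte genes were abundant in all 13 libraries, KRT14 reaching at least 4287 TPM and KRT1 at least 3002. In bulk skin, fewer cells of a type and less RNA per cell cannot be told apart.

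Keratins took 1.74% to 4.03% of summed TPM in CK1 and 5.16% to 6.50% in EF19-5. The lowest share was that of naive replicate 2, the library with the most muscle RNA, followed by saliva immune replicate 2 at 2.01% with 5.42% muscle. Naive replicate 1, with 5.37% muscle, had a keratin share of 3.64%, and saliva immune replicate 1, with 4.99% muscle, one of 3.09%. The 29 keratins included the single most abundant gene of 7 libraries: KRT1 ranked highest in 6, among them the 5 of EF19-5, and KRT14 in 1. Basal keratins made up 31.0% to 47.7% of keratin TPM in CK1 and 21.2% to 28.0% in EF19-5, while suprabasal keratins made up 13.6% to 24.8% in CK1, 23.5% in EF19-5 naive skin and 29.6% to 54.4% in the 2 bites and 3 bites libraries. These are shares of the 29 named keratins only, which lack KRT10 among others. In naive skin the basal share was 32.1% and 34.7% in CK1, against 21.5% in the single EF19-5 naive library. Within EF19-5 the suprabasal share was higher in the bitten libraries than in that naive library. Basal shares of the bitten libraries lay on both sides of its 21.5%.

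**Figure D1:**
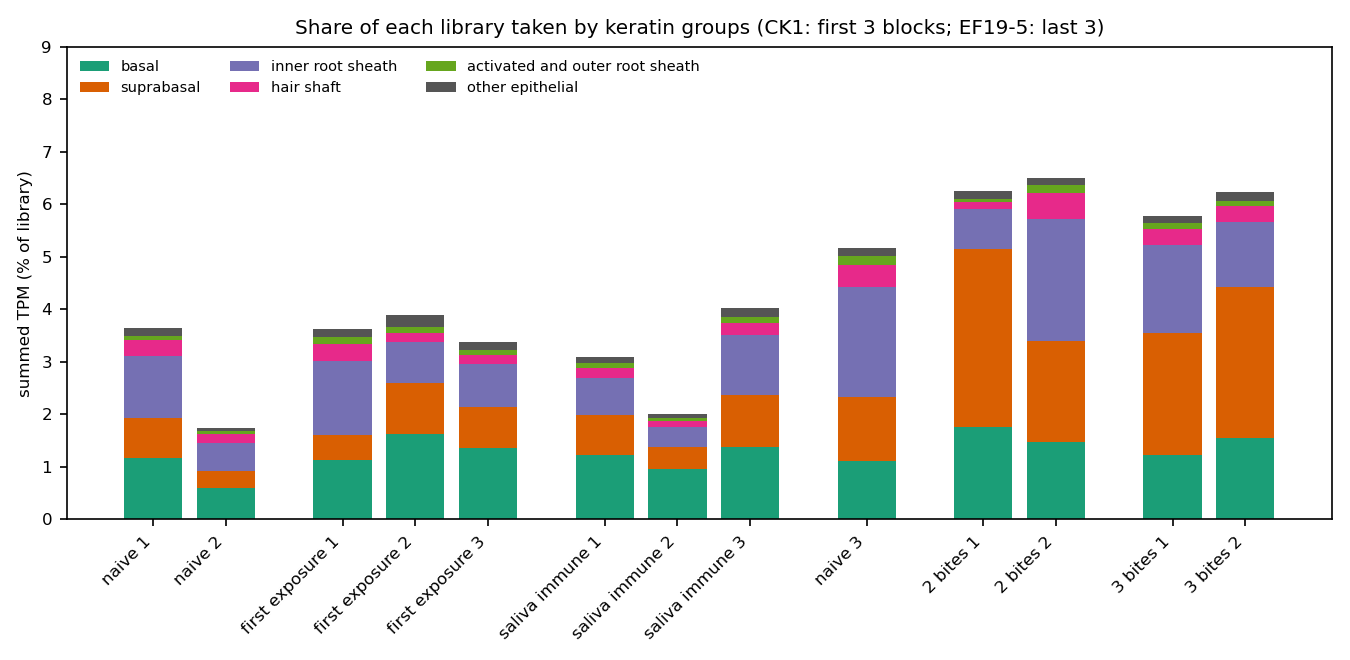
Summed TPM of keratin groups as a percent of each library (stacked bars, 13 libraries, CK1 on the left and EF19-5 on the right). The keratin total runs from 1.74% in naive replicate 2 to 6.50% in 2 bites replicate 2, and the suprabasal block is deepest in 2 bites replicate 1.

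KRT14 (ENSCPOG00000006839), the type I chain of basal keratinocytes, stood at 8031, 11212 and 9815 TPM in the first exposure libraries, at 9174, 7503 and 9469 in saliva immune skin and at 8013 and 4287 in CK1 naive skin. In EF19-5 it stood at 14039 and 11327 in 2 bites skin, at 8499 and 9730 in 3 bites skin and at 7903 in naive replicate 3. All 3 first exposure libraries lay above both CK1 naive libraries, first exposure replicate 1 (8031) only just above naive replicate 1 (8013), and all 4 bitten EF19-5 libraries lay above their naive library. KRT5, its type II partner, stood at 3186, 5012 and 3789 TPM in first exposure, at 3022, 2076 and 4261 in saliva immune and at 3688 and 1733 in CK1 naive skin. The corresponding KRT5 values in EF19-5 were 3463 and 3335 in 2 bites, 3748 and 5801 in 3 bites and 3183 in naive skin. KRT5 overlapped between bitten and naive skin in CK1 and lay above the naive library in the bitten EF19-5 libraries, by least in 2 bites skin.

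KRT1 (ENSCPOG00000007718), the type II chain of spinous keratinocytes, stood at 4815, 9375 and 7517 TPM in first exposure, at 7214, 4007 and 9584 in saliva immune and at 7214 and 3002 in CK1 naive skin. In EF19-5 it stood at 30577 and 17566 in 2 bites, at 21951 and 26931 in 3 bites and at 11674 in naive skin. KRT1 was the 1 keratin of 29 (3.45%) whose EF19-5 libraries all exceeded all CK1 libraries, against 7.43% of all tested genes, and 0 keratins lay the other way, against 5.52% of all genes. KRT2 (ENSCPOG00000038420), made later in differentiation than KRT1, stood at 55.8, 189 and 290 TPM in first exposure, at 351, 244 and 285 in saliva immune and at 254 and 127 in CK1 naive skin. In EF19-5, KRT2 stood at 3313 and 1578 TPM in 2 bites, at 1200 and 1589 in 3 bites and at 336 in naive skin. The 4 bitten EF19-5 libraries stood apart from the other 9, whose highest KRT2 level was 351. KRT77, a type II chain of skin, ranged from 15.2 to 241 TPM with overlap of the groups in CK1. KRT9, known mainly from palm and sole skin, reached 1 TPM in 3 libraries, with 5.03 and 4.22 TPM in 2 bites skin, 7.66 and 0.358 in 3 bites skin and 0.0152 in EF19-5 naive skin. The 3 libraries are bitten ones of EF19-5, so KRT9 passed the filter on low values only through the groups where it was high. A higher level there was the condition for including KRT9, so that level supports nothing. Group medians, positive counts and counts without overlap that KRT9 touches are given without it. In CK1, KRT9 lay at 0 to 0.0968 TPM in first exposure and naive skin and at 0.608, 0.885 and 0.567 in saliva immune skin.

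**Figure D2:**
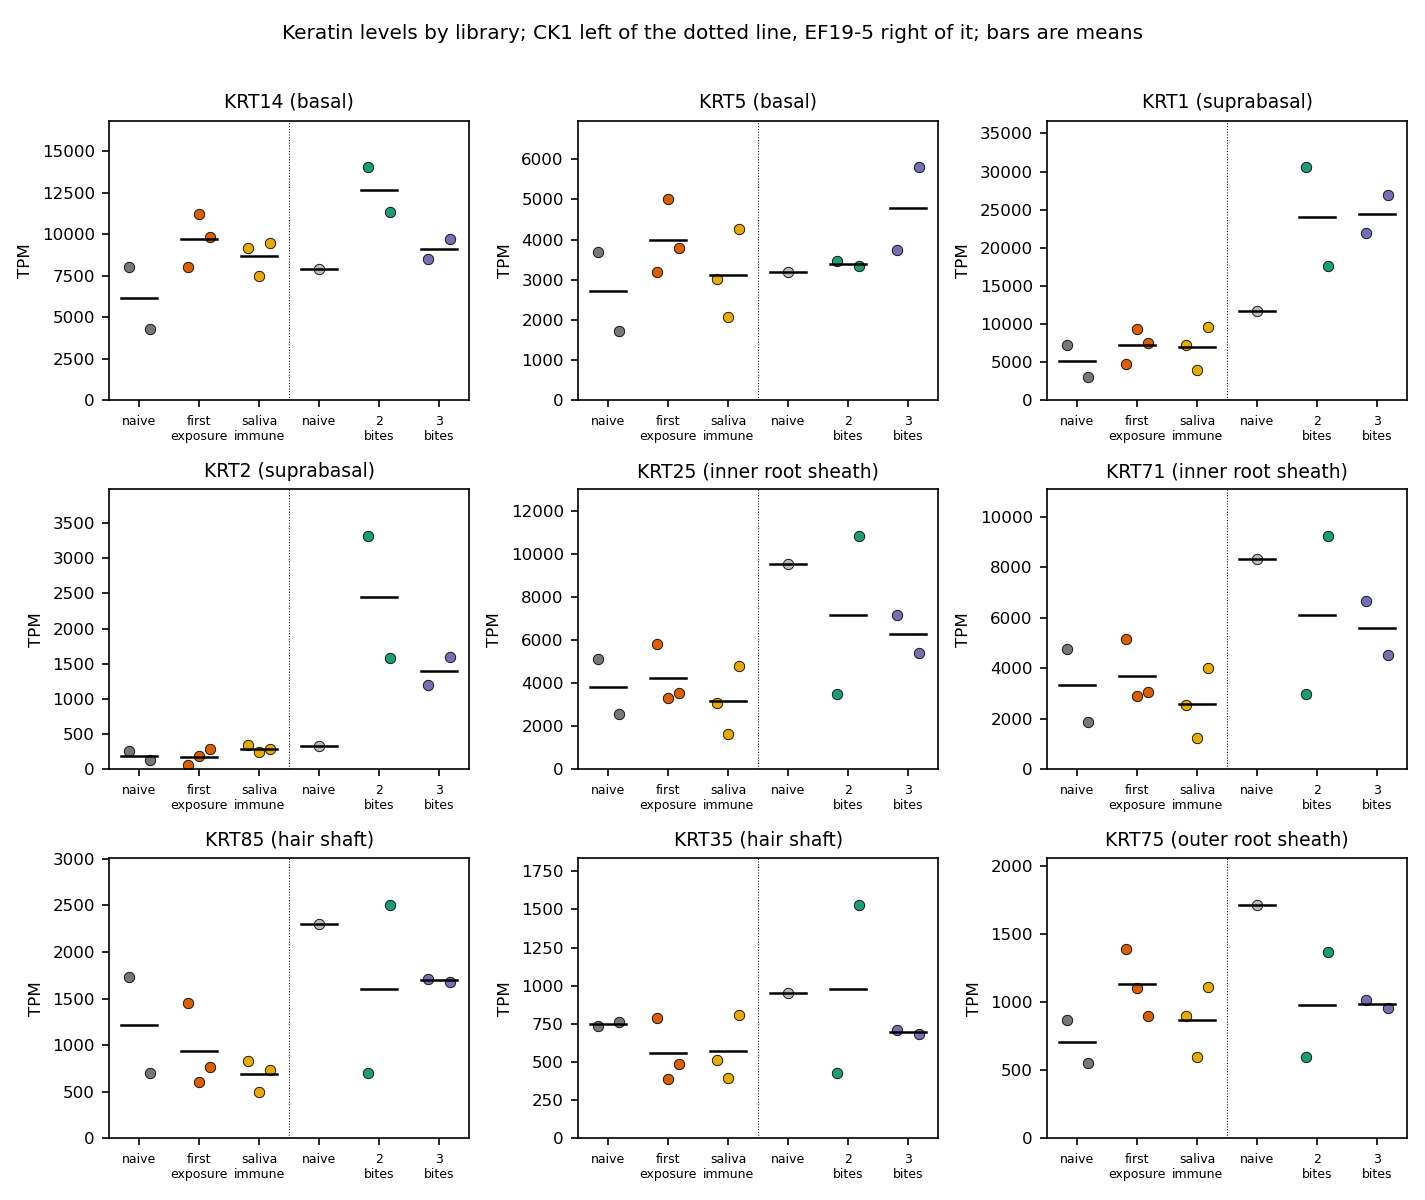
TPM of 9 keratins in each library (points) with the group means (bars), CK1 left and EF19-5 right of the dotted line in each panel. KRT1 and KRT2 are highest in the bitten EF19-5 libraries, while for KRT25, KRT71, KRT85 and KRT35 the widest gap in TPM within a group is that between the 2 libraries of 2 bites skin.

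Inner root sheath keratins were the most abundant follicle keratins, led by the type I chain KRT25 and the type II chain KRT71. KRT25 stood at 5801, 3324 and 3558 TPM in first exposure, at 3080, 1633 and 4816 in saliva immune and at 5106 and 2583 in CK1 naive skin. In EF19-5 it stood at 3522 and 10834 in 2 bites, at 7162 and 5423 in 3 bites and at 9533 in naive skin. KRT71 followed it closely, with 5178, 2900 and 3055 TPM in first exposure, 2548, 1235 and 4004 in saliva immune and 4772 and 1881 in CK1 naive skin. In EF19-5, KRT71 stood at 2974 and 9233 TPM in 2 bites, at 6652 and 4535 in 3 bites and at 8308 in naive skin. The groups of CK1 overlapped for both genes, and the libraries of 2 bites skin lay on either side of the EF19-5 naive library. The other type I chains were KRT27 (325 to 1809 TPM over 13 libraries), KRT26 (104 to 686) and KRT28 (16.3 to 82.9), and the other type II chains KRT73 (153 to 571), KRT72 (71.0 to 461) and KRT74 (26.3 to 165). Between the lower and the higher library of 2 bites skin, the 8 genes differed by 2.84 to 3.31 times (median 3.12), in the same direction for each, against 1.02 to 1.47 times in 3 bites skin. The extremes within a group were 2.33 to 3.63 times apart in saliva immune, 1.71 to 2.28 in first exposure and 1.63 to 2.93 in CK1 naive skin.

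Among hair shaft keratins, the type II chain KRT85 and the type I chain KRT35, which appear early in the forming shaft, had the highest levels. KRT85 stood at 1452, 606 and 767 TPM in first exposure, at 833, 494 and 734 in saliva immune and at 1736 and 698 in CK1 naive skin. In EF19-5 it stood at 700 and 2503 in 2 bites, at 1712 and 1681 in 3 bites and at 2298 in naive skin. KRT35 stood at 791, 387 and 490 TPM in first exposure, at 515, 396 and 811 in saliva immune and at 738 and 764 in CK1 naive skin. In EF19-5, KRT35 stood at 425 and 1528 TPM in 2 bites, at 712 and 683 in 3 bites and at 954 in naive skin. KRT35 was the follicle keratin on which the CK1 naive libraries differed least, by 1.03 times, while the other 6 shaft keratins differed there by up to 3.22 times. KRT84, a type II hair keratin, ranged from 99.5 to 580 TPM, and KRT82, a type II chain of the shaft cuticle, from 33.7 to 247. KRT40 (43.9 to 230), KRT39 (21.6 to 140) and KRT36 (8.95 to 40.3), all type I, completed the group. Within 2 bites skin the shaft keratins differed by 2.72 to 4.45 times, again with replicate 2 the higher.

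KRT75, a type II chain of the companion layer between the root sheaths, stood at 1391, 1101 and 899 TPM in first exposure, at 895, 600 and 1115 in saliva immune and at 870 and 550 in CK1 naive skin. In EF19-5 it stood at 598 and 1368 in 2 bites, at 1019 and 954 in 3 bites and at 1713 in naive skin. First exposure lay above naive skin in CK1, and the bitten libraries lay below the naive one in EF19-5. KRT79, known from the upper follicle and the sebaceous duct, stood at 1004, 1946 and 1257 TPM in first exposure, at 859, 613 and 1395 in saliva immune and at 1102 and 371 in CK1 naive skin, and within EF19-5 between 883 and 1360. KRT80, a type II chain of differentiating epithelia, ranged from 86.3 to 368 TPM and KRT23, a type I chain, from 55.8 to 158. KRT24 (0.166 to 9.25) and KRT3 (0 to 2.53) were low, as were the simple epithelial keratins KRT19 (0.633 to 2.76) and KRT7 (0.429 to 2.10). KRT7 and KRT19 are chains of glands and simple epithelia, and both lay near the filter limit of 1 TPM.

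A first exposure to ticks was set against naive skin within CK1, where the question is how skin responds to ticks without earlier bites. Basal keratins had a median log2 difference of 0.67, with KRT14 at 9686 ± 1595 (SD, n = 3) against 6150 ± 2635 TPM (n = 2), a log2 difference of 0.71 (SE 0.306). All log2 differences are between means of log2(TPM + 1), which understates those of low genes. KRT79 (1.07, SE 0.481) and KRT80 (0.96, SE 0.413) lay higher by more, and KRT84 (1.1) and KRT39 (1.07) had the largest values among the shaft keratins. KRT35 (-0.50) and KRT85 (-0.33) lay lower. All 8 inner root sheath keratins had a positive difference (median 0.42), as did 4 of 7 shaft keratins (median 0.59), 2 of 3 suprabasal keratins (median 0.34) and 22 of 28 keratins in all (median 0.58, against 0.14 over all tested genes).

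By limma, a linear model fitted over all 14979 genes, 0 of 29 keratins passed at an adjusted p under 0.05, against 0.0334% of all genes. KRT14, KRT79 and KRT80 passed at an unadjusted p under 0.05, as did 2044 genes in all, and the smallest adjusted p of a keratin was 0.355. The groups did not overlap for KRT14 and KRT75, both higher in first exposure (6.90% of keratins, against 21.9% of all genes), and for 0 keratins in the lower direction (14.1% of all genes). The differences rested on naive replicate 2: without it the keratin median was -0.04 and that of the inner root sheath group -0.17, with KRT14 at 0.26 and KRT80 at 0.27. Without naive replicate 1 the keratin median was 1.01. With only the 10 skeletal muscle markers taken out of the library totals, KRT14 differed by 0.65 and the keratin median was 0.52. Other muscle transcripts stayed in those totals, so the part of muscle was not tested.

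Saliva immune skin was set against the same naive libraries, which it shares with the first exposure comparison. KRT14 differed by 0.56, at 8715 ± 1061 (SD, n = 3) against 6150 ± 2635 TPM (n = 2), KRT2 by 0.69 and KRT85 by -0.71. The median was 0.40 for basal, 0.49 for suprabasal, -0.01 for inner root sheath and 0.36 for shaft keratins, and 0.23 over the 28 without KRT9, of which 18 were positive. limma called 0 keratins, against 0.00668% of all genes, and 0 keratins but 1742 genes passed at an unadjusted p under 0.05. Apart from KRT9, at levels under 1 TPM, 0 of 28 keratins lay higher in saliva immune skin without overlap (0%, against 18.5% of all genes). In the lower direction 0 keratins did so (6.22% of all genes). Without naive replicate 2 the keratin median was -0.30 and the inner root sheath median -0.51, and without naive replicate 1 they were 0.69 and 0.49. Without saliva immune replicate 2, whose muscle share was the highest of the bitten libraries, they were 0.53 and 0.44.

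Saliva immune and first exposure skin, the groups with 3 libraries each, were compared directly. Follicle keratins lay lower in saliva immune skin, with a median of -0.46 over 8 inner root sheath keratins, all negative, and -0.16 over 7 shaft keratins, of which 5 were negative. KRT71 stood at 2596 ± 1385 against 3711 ± 1273 TPM (SD, n = 3 each), a log2 difference of -0.62 (SE 0.553), and KRT25 at 3176 ± 1594 against 4228 ± 1367, a difference of -0.50 (SE 0.505). KRT2 lay the other way, at 293 ± 54.1 against 178 ± 117 TPM (0.99, SE 0.543). limma called 0 keratins and 0 genes in all (0%), and 0 keratins but 351 genes had an unadjusted p under 0.05. Again apart from KRT9, 0 of 28 keratins lay higher without overlap (0%, against 5.41% of all genes), and 0 keratins lay lower (1.35% of all genes). Without saliva immune replicate 2, which was lowest of all 13 libraries for 10 of 29 keratins, the inner root sheath median was -0.04.

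In EF19-5, skin labelled 2 bites was set against its naive library. KRT2 showed the largest difference: it stood at 2446 ± 1227 TPM (SD, n = 2) against 336 in the naive library, a log2 difference of 2.76 (SE 0.814), and KRT1 stood at 24072 ± 9200 against 11674 (0.99, SE 0.664). KRT77, also suprabasal, lay the other way, at 81.7 and 65.8 TPM against 132 (-0.83), and the median of these 3 genes was 0.99. The basal keratin KRT14 differed by 0.67. KRT9, which entered the test only through bitten EF19-5 libraries, differed by 2.47 (SE 0.777). All 8 inner root sheath keratins (median -0.70) and all 7 shaft keratins (median -0.80) had negative differences, the largest for KRT84 (-1.30) and KRT26 (-1.17), and KRT75 lay lower by a log2 difference of -0.92 (SE 0.511). Of 28 keratins without KRT9, 5 were positive and the median was -0.61, against -0.06 over all genes.

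limma called 0 keratins in 2 bites skin, against 0.0134% of all genes. KRT2 (adjusted p = 0.743) was among 879 genes with an unadjusted p under 0.05. KRT9 was among them too, but its entry through bitten EF19-5 libraries alone means that its p-value supports nothing. The lone naive library has no spread of its own and took that of the other groups. KRT1, KRT2, KRT5 and KRT14 lay above it in both bitten libraries (14.3% of 28 keratins, against 28.6% of all genes) and 12 of 29 keratins below it (41.4%, against 43.3% of all genes), so these shares were below or near those of all genes. The follicle values rested on 2 bites replicate 1: without it the inner root sheath median was 0.08 and the shaft median 0.12, and without replicate 2 they were -1.50 and -1.71. KRT2 differed by 2.23 without replicate 1 and 3.30 without replicate 2. KRT1 differed by 0.00 after quantile normalization, which sets the highest-ranked gene of each library to the same value, and KRT1 held that rank in all 5 EF19-5 libraries.

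Skin labelled 3 bites was set against the same naive library, which the comparison shares with 2 bites skin. KRT2 stood at 1395 ± 275 TPM (SD, n = 2) against 336, a log2 difference of 2.04 (SE 0.814), KRT1 at 24441 ± 3521 against 11674 (1.06, SE 0.664), and KRT9 differed by 1.76 (SE 0.777). KRT1, KRT2 and KRT77 were positive (median 1.06), and so were both basal keratins (median 0.38). The inner root sheath median was -0.38 with 2 of 8 positive, the shaft median -0.44 with 1 of 7 positive, and KRT75 differed by -0.80. Of 28 keratins without KRT9, 9 were positive and the median was -0.29, against 0.08 over all genes. limma called 0 keratins, against 0.00668% of all genes, and KRT2 and KRT9 were among 351 genes with an unadjusted p under 0.05. Both bitten libraries exceeded the naive one for 6 of 28 keratins (21.4%, against 41.1% of all genes), namely KRT1, KRT2, KRT5, KRT14, KRT72 and KRT79. Both lay below it for 16 keratins, or 55.2%, against 24.2% of all genes, among them KRT25, KRT27, KRT28, KRT71 and KRT74 of the inner root sheath and KRT35, KRT36, KRT40, KRT84 and KRT85 of the shaft. That count rests on the lone naive library, which was the highest of all 13 libraries for 7 of 29 keratins. KRT9 rested on replicate 1, since without it the difference was 0.42.

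Between 3 bites and 2 bites skin, KRT1 stood at 24441 ± 3521 and 24072 ± 9200 TPM (SD, n = 2 each), a log2 difference of 0.07 (SE 0.542). KRT2 differed by -0.73 (SE 0.665) and KRT14 by -0.47 (SE 0.335), with KRT14 lower in both libraries of 3 bites skin. Inner root sheath keratins had a median of 0.33, all 8 positive, and shaft keratins 0.36, 5 of 7 positive. limma called 0 keratins and 0 genes (0%), and 0 keratins but 1615 genes had an unadjusted p under 0.05. KRT3, KRT5, KRT26, KRT39, KRT72 and KRT77 lay higher in 3 bites skin without overlap (20.7%, against 35.6% of all genes) and KRT14 lower (3.45%, against 11.5% of all genes). Of these, KRT3 was near the floor, at 0.478 and 2.53 TPM in 3 bites skin against 0.296 and 0.309 in 2 bites skin. The inner root sheath median was -0.46 without 2 bites replicate 1 and 1.11 without replicate 2, so its sign depended on which library of 2 bites skin was kept.

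**Figure D3:**
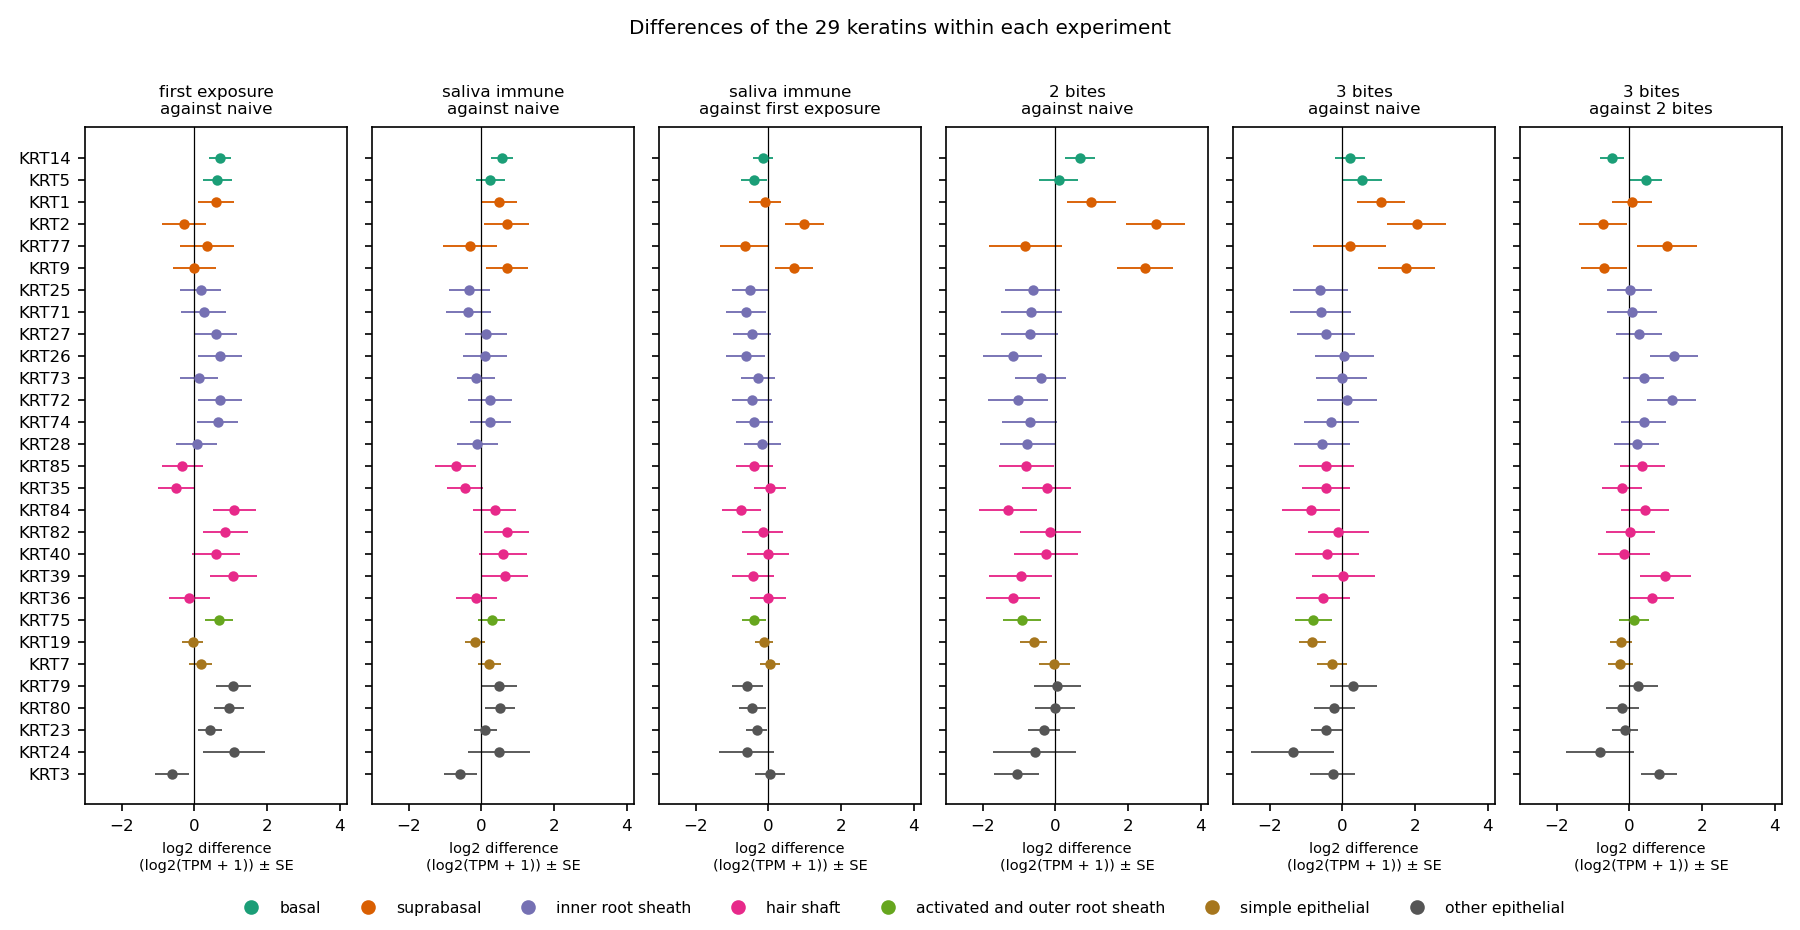
Differences of the 29 keratins on the log2(TPM + 1) scale (points, with SE as bars) in the 6 comparisons within experiments, coloured by keratin group. KRT2 and KRT9, the latter set by the filter, have the highest values in 2 bites and 3 bites skin against naive skin, and all 8 inner root sheath keratins lie below 0 in 2 bites against naive skin.

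The bite differences of the experiments were set against each other in the same model, as the mean of 2 bites and 3 bites against naive skin minus that of first exposure and saliva immune skin. KRT2 differed most, by 2.20 (SE 0.920). KRT84 (-1.82, SE 0.906), KRT24 (-1.75, SE 1.29), a low gene, and KRT75 (-1.34, SE 0.577) lay in the other direction, and KRT9 stood at 1.76 (SE 0.878). The inner root sheath median was -0.78, with 0 of 8 positive, the shaft median -0.89 with 1 of 7, and the suprabasal median 0.49 over 3 genes, against -0.12 over all genes. limma called 0 keratins and 0 genes (0%), with an adjusted p of 0.999 for KRT2 and for KRT75, the keratins among 421 genes at an unadjusted p under 0.05. Repeat bites and the experiment cannot be told apart here, since no bitten group is found in both experiments. Without naive replicate 2 the inner root sheath median was -0.15 and the shaft median -0.22.

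All 10 bitten libraries were also set against all 3 naive ones with the experiment as a term. KRT14 differed by 0.57 (SE 0.215) and KRT1 by 0.70 (SE 0.319), the keratins that passed at an unadjusted p under 0.05 among 2366 genes. limma called 0 of 29 keratins, against 0.0401% of all genes, the adjusted p being 0.239 for KRT14 and 0.306 for KRT1. Without naive replicate 2, KRT14 differed by 0.31 and KRT1 by 0.44. The keratin median was 0.07, against 0.10 over all genes, with 0.48 for basal, 0.70 for suprabasal, -0.03 for inner root sheath and 0.10 for shaft keratins.

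Ratios between keratins of a library do not change with that library's scaling. KRT71 to KRT25, the inner root sheath chains, kept a ratio of 0.728 to 0.935 over 13 libraries, although each gene varied by over 6 times (6.64 times for KRT25 and 7.48 for KRT71). KRT85 to KRT35, the shaft chains, varied more, from 0.905 to 2.46. That ratio was 0.914 in naive replicate 2 and 2.35 in naive replicate 1, while in EF19-5 it was 1.64 in both 2 bites libraries, 2.40 and 2.46 in 3 bites skin and 2.41 in naive skin. KRT5 to KRT14, the basal chains, was 0.247 and 0.294 in 2 bites skin, 0.441 and 0.596 in 3 bites skin and 0.403 in EF19-5 naive skin, against 0.277 to 0.460 in CK1. The 2 bites libraries were the lowest for this ratio apart from saliva immune replicate 2 at 0.277.

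Ratios across layers were added after the values were seen. KRT1 to KRT5, spinous against basal, was 1.51 to 2.39 in CK1, 3.67 in EF19-5 naive skin, 5.27 and 8.83 in 2 bites skin and 4.64 and 5.86 in 3 bites skin. KRT2 to KRT1, late against early differentiation, was 0.0116 to 0.0609 in CK1 and 0.0288 in EF19-5 naive skin, 0.0898 to 0.108 in 2 bites skin and 0.0547 to 0.0590 in 3 bites skin. Within EF19-5 all 4 bitten libraries thus stood above the naive library in both ratios, whereas in CK1 bitten and naive libraries overlapped in both. KRT71 to KRT5, an inner root sheath keratin against a basal keratin, ranged from 0.579 to 2.77. In CK1 naive skin it was 1.29 and 1.09. First exposure gave 1.63, 0.579 and 0.806, on both sides of naive skin, and saliva immune skin 0.843, 0.595 and 0.94, below it. In EF19-5 it was 2.61 in naive skin, 0.859 and 2.77 in 2 bites skin and 1.77 and 0.782 in 3 bites skin.

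**Figure D4:**
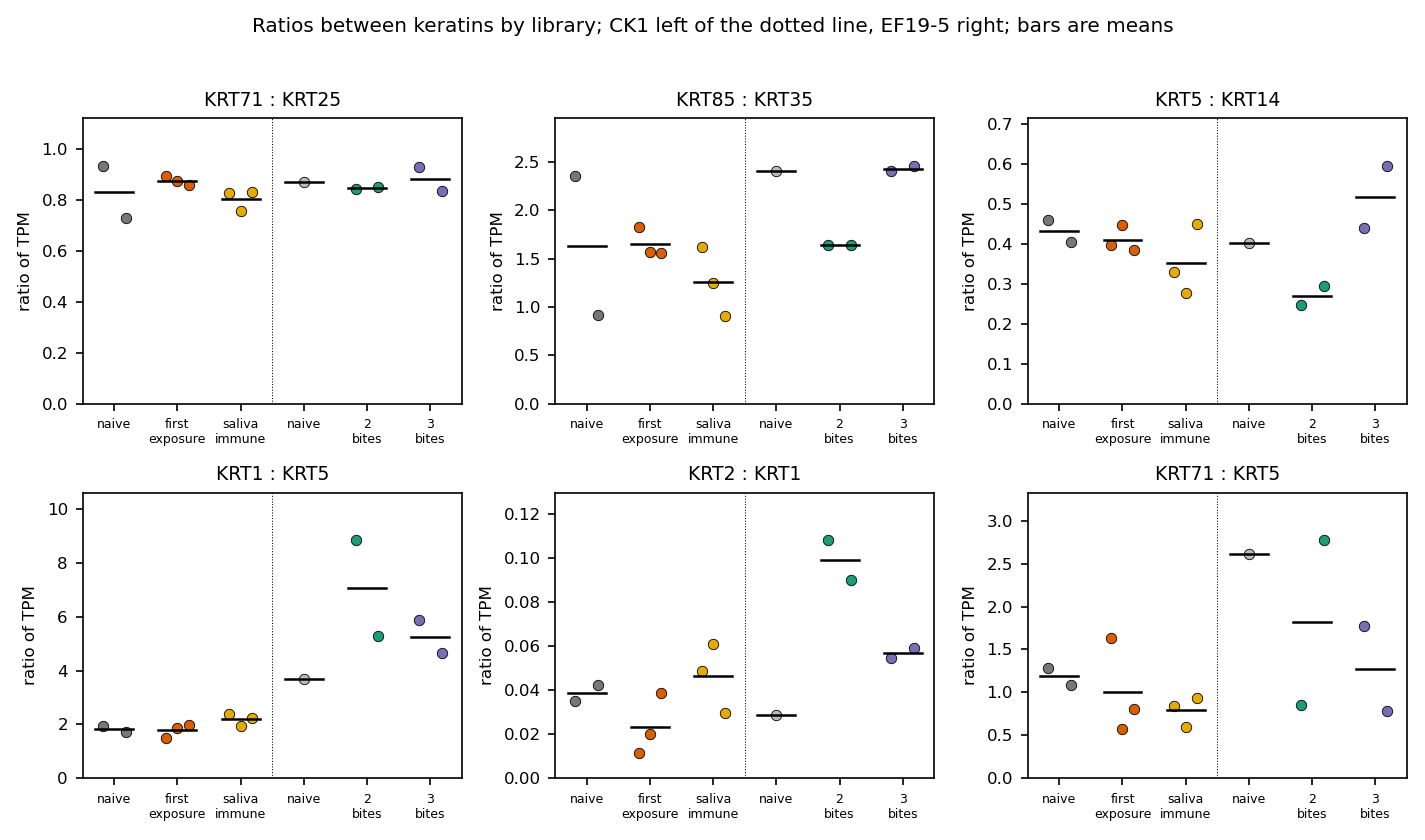
Ratios of TPM between pairs of keratins in each library (points) with group means (bars), CK1 left and EF19-5 right of the dotted line. KRT71 to KRT25 stays between 0.728 and 0.935, while KRT1 to KRT5 is 1.51 to 2.39 in CK1 and 3.67 to 8.83 in EF19-5.

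Genes that work with keratins were read from 4 lists. Of their 56 tested members, limma called 0 in each of the 8 comparisons. The junction list holds desmosome and hemidesmosome genes, to which keratin filaments are anchored. Its 17 tested members (of 19) were all higher in first exposure than in naive skin (median 0.59), led by the desmosomal cadherins DSC2 (0.93, adjusted p = 0.312) and DSG1 (0.78, adjusted p = 0.401). Without naive replicate 2 their median was 0.10, with 15 of 17 positive, the list's summed share being 0.484% to 0.639% in first exposure, 0.493% in naive replicate 1 and 0.251% in naive replicate 2. In 3 bites against naive skin 12 of 17 were positive (median 0.33), with COL17A1, a hemidesmosome collagen, at 1.46 (adjusted p = 1), and in 2 bites skin 9 of 17 (median 0.05), with PPL, the plakin periplakin, at 1.31 (adjusted p = 0.873). The epidermal regulators, with 15 tested of 16, had medians of 0.35 in first exposure (-0.10 without naive replicate 2), -0.05 in 2 bites and 0.22 in 3 bites against naive skin. CEBPB, a transcription factor of differentiating keratinocytes, differed by 0.45 in first exposure (adjusted p = 0.344).

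The filament matrix and crosslinking list, with 8 tested of 18, had 7 positive members in first exposure against naive skin (median 0.53), led by the corneodesmosome gene CDSN (0.94, adjusted p = 0.339), but 4 (median -0.02) without naive replicate 2. CASP14, a protease that matures the filament matrix, stood higher in EF19-5 (405 to 781 TPM) than in CK1 (55.1 to 266). The same held for KRT1 and for 7.43% of all tested genes. The follicle regulators, with 16 tested of 20, were all lower in 2 bites than in naive skin (median -0.51), 4 of 16 were positive in 3 bites (median -0.36) and 8 of 16 in first exposure (median 0.03). The 2 bites median rested on replicate 1: without it the median was -0.05 with 7 of 16 positive, and the summed level was 990 TPM in replicate 1 and 2317 in replicate 2, against 2107 in naive skin. HOXC13, a homeobox activator of hair keratin genes, stood at 40.4 and 146 TPM in 2 bites skin, 104 and 90.1 in 3 bites skin and 144 in EF19-5 naive skin, so that it too was low in replicate 1 of 2 bites skin. FOXN1, a transcription factor of the hair matrix, stood at 59.0 and 184 TPM in 2 bites, 157 and 131 in 3 bites and 188 in naive skin. SELENBP1, a selenium-binding protein, had the smallest adjusted p of the 4 lists in all bitten against naive skin (log2 difference -0.85, adjusted p = 0.203).

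Markers of other cells were set beside these values. In first exposure against naive skin, 7 of 7 adipocyte markers were positive (median 2.08), 6 of 6 tested sebocyte markers (median 1.25), 0 of 7 fibroblast markers (median -0.52) and 3 of 10 muscle markers (median -1.27). In 2 bites against naive skin the medians were -0.32 for adipocyte, 0.69 for sebocyte, -0.31 for fibroblast and -1.72 for muscle markers, and in 3 bites skin -0.35, 0.49, -0.89 and -1.27. All 6 tested leukocyte markers were positive in first exposure, in 2 bites and in all bitten against naive skin (medians 1.00, 1.02 and 0.98), and 5 of 6 in 3 bites skin (median 0.38). In all bitten against naive skin limma called 1 of these markers, against 0.0401% of all genes. It was PVALB, a calcium-binding protein of fast muscle fibres, which fell. Of the 10 muscle markers, 3 were positive in that comparison (median -1.32, range -2.31 to 0.94). The B cell marker MS4A1 was listed at 0 in 11 libraries. The part of these tissues in the keratin values was not tested.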

How the data were processed

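RNA of guinea pig skin was sequenced in 13 libraries. The authors deposited TPM values for 26855 genes, 18254 of them with a symbol, in a table whose 13 value columns were all used (0 left out). The submitters' processing notes name Trimmomatic, StringTie and DESeq, with neither version nor role. Aligner, genome build, annotation and the handling of reads shared by similar keratins were not given in the sources used here, so closely related chains are uncertain, and no coordinates or sequences are printed.

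Keratins and companion lists were chosen with earlier results of these data known. Genes reaching 1 TPM in 2 or more libraries entered the test, which used log2(TPM + 1) and limma (version 3.58.1, under R 4.3.3, with values read by the package data.table, version 1.17.8). Variances were moderated by empirical Bayes along the intensity trend, and two-sided p-values were adjusted by Benjamini-Hochberg over 14979 genes, with a threshold of 0.05. Each group within each experiment had its own mean, and all libraries shared 1 estimate of the spread. Bitten against naive skin used an experiment term. The fits were tested on simulated data.

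Values in each library are given for KRT14, KRT5, KRT1, KRT2, KRT25, KRT71, KRT85, KRT35 and KRT75, which have the highest mean TPM of their groups. Other keratins are given as ranges or for some of the libraries. For companion lists, members with the smallest p are given. KRT9, KRT39, HOXC13 and FOXN1 were named after their values were seen. Type ratios with KRT10 or KRT16 were not computed. The alternatives changed the pseudocount (0.1), filter, scaling, weights, prior, experiment term and libraries. Those without the skeletal muscle markers, without KRT9 or for gene lists without a library were chosen after seeing the data.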

Additional observations from a re-analysis of the deposited data

How the results depend on the processing

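Across 160 values (20 for each of 8 comparisons) and 3394 other fits, 182 fits changed the sign of a difference that was not called, and 75 values kept their sign in every fit. Passing the threshold was seen in 2 fits. Without the experiment term, the naive libraries of both experiments formed 1 group, so bitten EF19-5 skin was also set against CK1 naive skin. In that fit 1 keratin was called by limma in 2 bites against naive skin. It was KRT2, with a log2 difference of 3.36 and an adjusted p of 0.0394, among 254 genes called in place of 2. In 3 bites against naive skin, leaving out a library gave 0 to 1 called keratins. The 1 was KRT9, which passed the filter only through bitten EF19-5 libraries, without 3 bites replicate 2 (log2 difference 3.09, adjusted p = 0.0215, 3 genes called), where 1 library stands against 1. In all other fits of the 8 comparisons, 0 keratins were called. Leaving out the experiment term also turned the inner root sheath median to 0.17 in 2 bites and 0.45 in 3 bites against naive skin. CK1 naive skin had 254 and 127 TPM of KRT2, against 336 in EF19-5 naive skin. For KRT25 it had 5106 and 2583 TPM, against 9533. How far the added CK1 naive libraries moved each value was not tested.

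Median-of-ratios scaling brought the median over all genes from between -0.12 and 0.14 to between -0.03 and 0.01. EF19-5 against its naive skin could not be fitted without naive replicate 3. No paired analysis was possible because the library titles carry no number that pairs the groups. With 1 to 3 libraries a group, and no depth in TPM, small differences in keratins may go undetected.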
